A study of Mus musculus with 6 samples.

Results

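Transcripts of 10 genes of necroptosis, pyroptosis and the inflammasome (Ripk1, Ripk3, Mlkl, Zbp1, Gsdmd, Casp1, Casp4, Casp8, Nlrp3 and Pycard) were followed in mouse liver. The genes were taken by name. They were found once each among the 56305 genes of the deposited table, and all 10 were among the 15430 genes that could be tested. Necroptosis and pyroptosis are programmed forms of cell death in which the plasma membrane is broken open and the cell content is released. In necroptosis, the kinase Ripk3 is switched on by Ripk1 or by the Z-nucleic acid sensor Zbp1 and phosphorylates the pseudokinase Mlkl, which then permeabilizes the membrane, whereas Casp8 cleaves Ripk1 and Ripk3 and holds this route back. In pyroptosis, a sensor such as Nlrp3 gathers the adaptor Pycard (also called ASC) and the protease Casp1 into an inflammasome, while Casp4 (mouse caspase-11) is activated by cytosolic lipopolysaccharide, and both caspases cut Gsdmd, whose fragment forms the pore. In healthy liver the inflammasome genes are known mainly from macrophages, and hepatocytes are described as poor in Ripk3.

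The livers came from 3 WT and 3 Vps15LKO male mice of 5 weeks, which were fed ad libitum and taken at zeitgeber time (ZT) 6. Vps15LKO mice carry AlbCre+ and Vps15 f/f, so that Cre made under the albumin promoter deletes Vps15, the regulatory subunit of class 3 PI3K, in hepatocytes. Cells of the liver in which this promoter was never active keep the gene, and the alleles of the WT mice are not given in the sources used here. Polyadenylated RNA of each liver was sequenced as 1 library, and p-values measure the spread between these mice. The deposited values, called normalized counts here, are the read counts of a library over its size factor. Reads on genes numbered between 16137093 and 18110223, while the size factors ran from 0.742 to 0.801 in WT and from 1.23 to 1.41 in Vps15LKO libraries. A single read thus stands for 1.25 to 1.35 normalized counts in the WT libraries but for 0.707 to 0.810 in those of Vps15LKO livers. Pik3r4, the gene of Vps15, was measured at 508, 573 and 459.7 normalized counts in WT mice and at 341, 362 and 355 in Vps15LKO mice. Its log2 fold change was −0.54 ± 0.11 (SE, limma adjusted p = 0.00207), but 0.19 when libraries were scaled to the same total of reads, and the deleted exons were not counted apart.

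The hepatocyte markers of a list of 12 genes remained the most abundant of all marker lists in both genotypes, with summed levels of 3631210 to 3978970 normalized counts for WT and 1191850 to 1745190 for Vps15LKO livers. In whole tissue, fewer cells of a type and less RNA per cell cannot be told apart, and this holds for every level given here.

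Promoters of 8 members are held in the RefSeq table for GRCm38.p6, in windows that run from 250 bases before to 50 bases after a start site. These were searched on both strands for the E-box CACGTG bound by Bmal1 and Clock, the NF-kB element GGGANTTCC, the PU.1 element GAGGAAGT, the interferon element GAAANNGAA and the STAT element TTCNNNGAA. Zbp1 and Gsdmd have no entry. The stretches below show 1 upstream match for each of 4 members whose RNA was higher in Vps15LKO liver, each 5′ to 3′ on the strand of the gene, with the match in capitals.
Casp1, E-box, chr9:5298350-5298415, plus strand: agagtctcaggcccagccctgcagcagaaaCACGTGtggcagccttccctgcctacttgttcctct
Ripk3, E-box, chr14:55788883-55788948, minus strand: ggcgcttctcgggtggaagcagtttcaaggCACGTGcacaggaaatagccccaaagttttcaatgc
Casp4, NF-kB element, chr9:5308727-5308795, plus strand: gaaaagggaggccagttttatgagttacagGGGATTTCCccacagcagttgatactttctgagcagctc
Pycard, PU.1 element on the other strand, chr7:127993874-127993941, minus strand: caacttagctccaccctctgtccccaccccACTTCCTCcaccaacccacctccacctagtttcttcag

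Counted from the start site, with the base just before it as −1, the first base of the E-box lay at −137 in Casp1 and at −61 in Ripk3. Of all 32851 windows in the table, 7.15% hold an E-box. The NF-kB match of Casp4 began at −92 from the more upstream of its start sites, with a further match at −39 on the other strand, and 1.68% of windows hold that element. The PU.1 match of Pycard began at −44, and 3.20% of windows hold it. The interferon element was found in Ripk1 and Ripk3 (8.56% of windows) and the STAT element in Ripk1 (8.30% of windows). None of the 5 elements was found in the windows of Mlkl, Casp8 and Nlrp3. A match describes letters only, and binding at these sites was not measured here.

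The comparison of genotypes addressed which of the 10 transcripts changed in Vps15LKO liver. RNA of 7 members was higher in Vps15LKO liver: the necroptosis genes Ripk3, Mlkl and Zbp1, and the pyroptosis genes Casp1, Casp4, Nlrp3 and Pycard. Their folds ran from 2.37 for Casp1 to 4.82 for Mlkl. Ripk1, Gsdmd and Casp8 were not called, with fold changes between 0.998 and 1.07, and no member was called lower. Calls required a fold of at least 1.2 and a limma p under 0.05 after Benjamini-Hochberg adjustment across the tested genes. Of all tested genes, 33.5% were called higher and 33.0% lower. The 3 Vps15LKO values lay above the 3 WT values for the same 7 members and for 36.4% of tested genes. The median log2 fold change was 1.90 over the members and −0.02 over all tested genes. Ripk3, Nlrp3 and Pycard passed the filter of at least 20 normalized counts in 3 livers only through the Vps15LKO livers, since 2, 1 and 1 of the WT livers reached that level, so their place among the tested genes depends on their being high there. Of the 7 members that had at least 20 normalized counts in every liver, 4 were called higher (Mlkl, Zbp1, Casp1 and Casp4), and their median log2 fold change was 1.25. Under that filter, 27.9% of 13101 genes were called higher and 36.2% lower, with a median of −0.10. The plot of the members by liver shows these separate and overlapping groups.

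**Figure D1:**
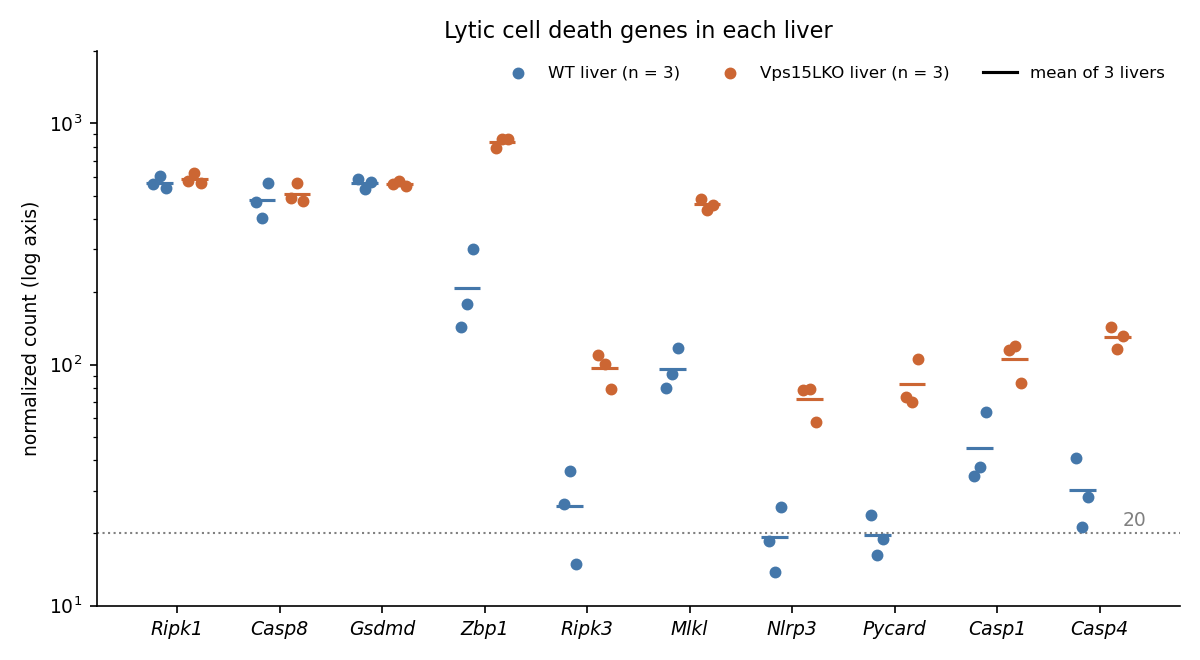
Normalized counts (log axis) of the 10 members in each of 3 WT and 3 Vps15LKO livers, with 1 point per liver and a line at each mean. The groups are apart for 7 members, such as Mlkl with WT livers between 79.6 and 117 and Vps15LKO livers between 438 and 487, and overlap for Ripk1, Gsdmd and Casp8.

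Among the necroptosis genes, Mlkl, the executioner of the pathway (chromosome 8, 111311797 to 111338177, minus strand, GRCm38), showed the largest fold of the members on the deposited scale, though its interval overlapped those of other called members, and Zbp1 stood above it with quantile normalization and Casp4 and Pycard without WT replicate 1. It stood at 79.6, 91.2 and 117 normalized counts in WT and at 487, 438 and 458 in Vps15LKO mice. Its lowest Vps15LKO liver thus stood far above its highest WT liver. The log2 fold change was 2.27 ± 0.15 (SE, limma adjusted p = 6.25e-06), a fold of 4.82 with a 95% interval of 3.78 to 6.14.

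Zbp1, which senses Z-form nucleic acids and is itself induced by interferon (chromosome 2, 173206612 to 173218923, minus strand), had 143, 177 and 301 normalized counts in WT livers. In Vps15LKO livers it had 792, 857 and 863. The WT livers were spread over a wider range than the Vps15LKO livers, with WT replicate 3 the highest of its genotype. The log2 fold change was 2.08 ± 0.24 (SE, limma adjusted p = 8.62e-05), and 2.39 without WT replicate 3.

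Ripk3, the kinase that activates Mlkl (chromosome 14, 55784995 to 55788865, minus strand), was low in WT livers, with 26.5, 36.2 and 14.8 normalized counts, which rest on 20, 29 and 11 reads. In Vps15LKO livers it had 110.0, 100.5 and 79.2 normalized counts, or 144, 124 and 112 reads. Here WT replicate 3 was the lowest WT liver, the opposite of its place for Mlkl and Zbp1. The log2 fold change was 1.93 ± 0.31 (SE, limma adjusted p = 0.000656), with the widest interval of the 7 called members, 1.21 to 2.65, and it was 1.60 without WT replicate 3 and 1.33 with quantile normalization.

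Ripk1, the kinase scaffold of the TNF receptor complex (chromosome 13, 34002363 to 34037147, plus strand), had 559.6, 606 and 538 normalized counts in WT and 577, 622 and 564 in Vps15LKO livers. The genotypes overlapped, and the log2 fold change was 0.05 ± 0.09 (SE, limma adjusted p = 0.653). The 95% interval of its fold on this scale was 0.894 to 1.198. Casp8, the protease that restrains necroptosis and starts extrinsic apoptosis (chromosome 1, 58795374 to 58847503, plus strand), had 472, 403 and 563 normalized counts in WT and 489.5, 565 and 476 in Vps15LKO livers. Its values overlapped too, with a log2 fold change of 0.10 ± 0.14 (SE, limma adjusted p = 0.548) and an interval of the fold from 0.862 to 1.33. Ripk1 shares 241 exonic bases with Serpinb6a on the opposite strand, which took 12475 reads over the 6 livers, and 511 with the pseudogene Gm17084 on its own strand. The library protocol keeps strand, but whether the counting used strand is not given in the sources used here, so the level of Ripk1 is uncertain to that extent.

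Among the pyroptosis genes, Casp4 (chromosome 9, 5308828 to 5336783, plus strand), which binds cytosolic lipopolysaccharide, had 41.1, 21.2 and 28.3 normalized counts in WT and 143, 116 and 132 in Vps15LKO livers. The groups were apart, and the log2 fold change was 2.11 ± 0.25 (SE, limma adjusted p = 9.86e-05). Casp1, its neighbour on chromosome 9 (5298517 to 5307265, plus strand) and the protease of the canonical inflammasome, had 34.5, 37.5 and 63.4 normalized counts in WT and 115, 119 and 83.5 in Vps15LKO livers. WT replicate 3 was again the highest WT liver, yet it stayed below the lowest Vps15LKO liver. Its log2 fold change, 1.25 ± 0.26 (SE, limma adjusted p = 0.00271), was the smallest of the 7, and it ran from 0.70 with quantile normalization to 1.96 with equal total reads.

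Nlrp3, the sensor of membrane damage and ion efflux (chromosome 11, 59541568 to 59566956, plus strand), had the lowest mean of the members per length in WT livers, where it overlapped with Pycard. It had 18.6, 13.7 and 25.6 normalized counts there, from 14, 11 and 19 reads. In Vps15LKO livers it had 78.7, 79.4 and 58.0, all above the WT values. The log2 fold change was 1.87 ± 0.27 (SE, limma adjusted p = 0.000335), and 1.22 with quantile normalization. Pycard, the adaptor that joins sensor and caspase (chromosome 7, 127989708 to 127993867, minus strand), had 23.9, 16.2 and 18.9 normalized counts in WT livers, from 18, 13 and 14 reads. In Vps15LKO livers it had 73.3, 69.7 and 105. The groups were apart, with Vps15LKO replicate 3 the highest liver, and the log2 fold change was 2.01 ± 0.24 (SE, limma adjusted p = 0.000127), and 1.37 with quantile normalization. Pycard shares 485 exonic bases with Gm45205 on the opposite strand, which took 177 reads over the 6 livers.

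Gsdmd, whose cleaved fragment forms the pore of pyroptosis (chromosome 15, 75862327 to 75867408, plus strand), had 587, 535 and 570.2 normalized counts in WT and 561, 575 and 552 in Vps15LKO livers. All 3 Vps15LKO values fell inside the WT range. The log2 fold change was −0.00 ± 0.09 (SE, limma adjusted p = 0.982), with a 95% interval of the fold from 0.871 to 1.14. On this scale the interval of the pore-forming substrate leaves out folds above 1.14, whereas both inflammatory caspases, the sensor and the adaptor were called higher.

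**Figure D2:**
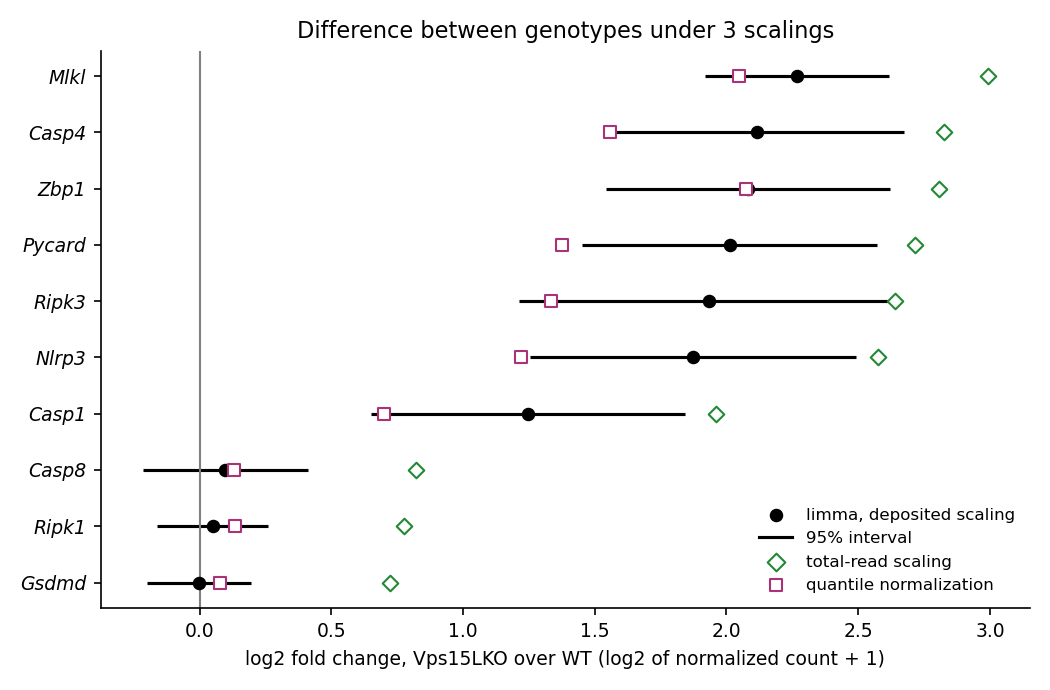
Log2 fold change of each member, Vps15LKO against WT (3 livers each), as deposited with its 95% interval, and under quantile normalization and scaling to equal total reads. The 7 called members lie above 0 on the 3 scales, while Ripk1, Casp8 and Gsdmd lie near 0 as deposited and between 0.72 and 0.82 with equal total reads.

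The scale decides what is said of the 3 members that were not called. When libraries were scaled to equal total reads, the median gene moved up by 0.72 on the log2 scale, and all 10 members were called higher, beside 66.7% of tested genes. There the log2 fold changes were 0.78 for Ripk1, 0.82 for Casp8 and 0.72 for Gsdmd, that is, close to the shift of the median gene. The other 7 members ranged from 1.96 to 2.99. Per 1000000 reads, the mean of Gsdmd was 24.9 reads in WT and 41.2 in Vps15LKO livers, and that of Mlkl was 4.26 and 33.8.

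Reads of 1 member per 100 reads of another in the same library do not depend on the size factors, but they show unequal change only. Per 100 reads of Ripk1, the reads of Mlkl numbered 17.02 ± 4.16 for WT and 78.7 ± 7.35 for Vps15LKO livers (SD, n = 3, two-sided exact permutation p = 0.1). Zbp1 took 36.9 ± 16.5 reads in WT and 143 ± 8.96 in Vps15LKO livers. Ripk3 took 4.49 ± 1.63 and 16.4 ± 2.52 reads. For each of these ratios the genotypes did not overlap and the exact permutation p was 0.1, the smallest that 3 against 3 livers allow.

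The inflammasome genes were set against Gsdmd in the same way. Per 100 reads of Gsdmd, Casp4 took 5.31 ± 1.54 reads in WT mice and 23.1 ± 2.72 in Vps15LKO mice (SD, n = 3, exact permutation p = 0.1). Pycard took 3.47 ± 0.531 and 14.8 ± 3.79 reads, Nlrp3 took 3.41 ± 0.984 and 12.8 ± 1.96, and Casp1 took 7.997 ± 2.76 and 18.7 ± 3.14. All 4 ratios were apart between the genotypes. The share of all genes that would be apart against Ripk1 or Gsdmd was not computed. As deposited, 36.4% of tested genes had every Vps15LKO value above every WT value. Casp8 overlapped between the genotypes, at 85.2 ± 19.1 reads per 100 of Ripk1 for WT and 86.7 ± 3.52 for Vps15LKO mice (SD, n = 3, exact permutation p = 0.7). Against Ripk3, the kinase it restrains, Casp8 stood at 2231 ± 1399 reads per 100 in WT and at 536 ± 81.1 in Vps15LKO mice (SD, n = 3, exact permutation p = 0.1), with no overlap. Mlkl per 100 reads of Ripk3 overlapped between the genotypes, at 448 ± 298 and 486 ± 79.7 (SD, n = 3, exact permutation p = 0.6). The overlap rests on WT replicate 3, with 11 reads of Ripk3, which stood at 791 against 300.0 and 252 in the other WT livers and 436 to 578 in Vps15LKO livers. Without it the WT mean was 276 for Mlkl and 1447 for Casp8 per 100 reads of Ripk3. In all, 13 ratios were computed, and with a smallest p of 0.1 none can pass an adjustment over them.

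**Figure D3:**
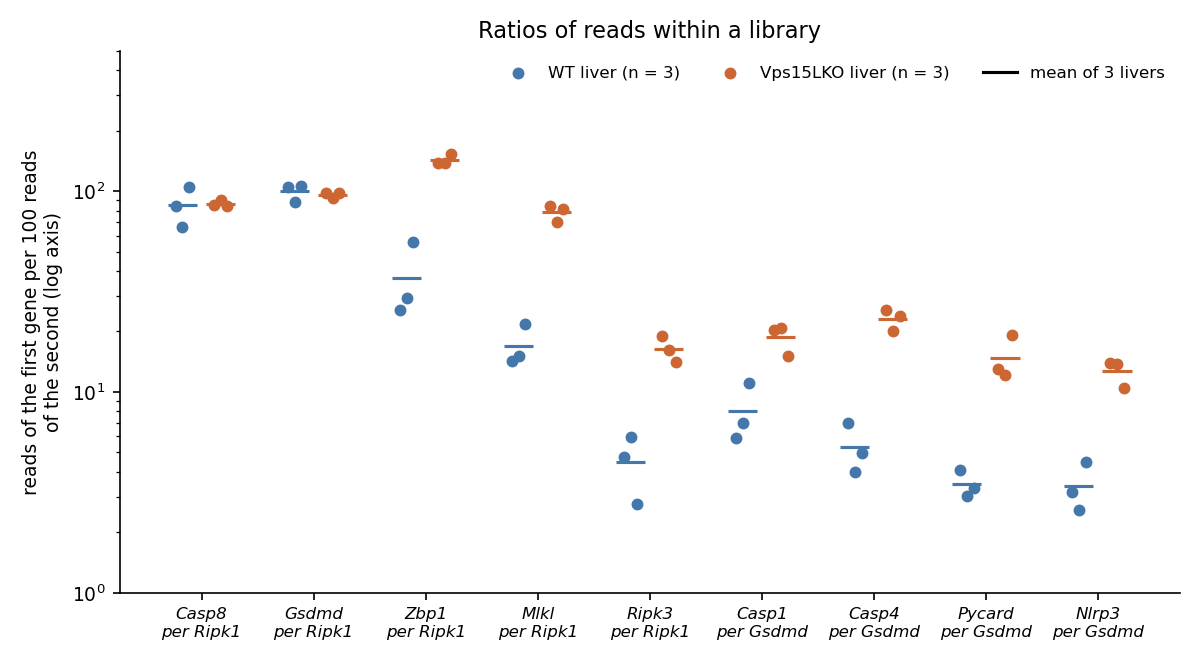
Reads of 1 member per 100 reads of another in the same library (log axis), with 1 point per liver for 3 WT and 3 Vps15LKO livers. Mlkl, Zbp1 and Ripk3 per Ripk1 and the 4 inflammasome genes per Gsdmd lie higher in each Vps15LKO liver, whereas Casp8 per Ripk1 overlaps.

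Levels of different genes were compared per kilobase of exon. In WT liver the order was led by Gsdmd with 237 normalized counts per kb, followed by Casp8 with 166 and Ripk1 with 68.0. Then came Zbp1 with 58.7, Mlkl with 41.7, Casp1 with 30.1, Ripk3 with 11.3, Casp4 with 8.14, Pycard with 5.17 and Nlrp3 with 4.76. Between neighbours, only Gsdmd over Casp8, Casp8 over Ripk1 and Casp1 over Ripk3 were apart in all livers. In Vps15LKO liver Zbp1 (237 per kb) and Gsdmd (237) shared the first place with overlap, and Mlkl with 200.2 came next, which overlapped with Casp8 at 176. Casp1 (70.6) and Ripk1 (70.4) overlapped, as did Ripk3 (42.1) and Casp4 (35.1), and Pycard (21.8) and Nlrp3 (17.8). Zbp1 and Mlkl, in the middle of the order in WT liver, thus stood among its top genes in Vps15LKO liver.

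Among the 3 WT livers, replicate 3 was the highest for 4 of the 7 called members (Mlkl, Zbp1, Casp1 and Nlrp3) and for 20 of 22 interferon-stimulated genes. Among the Vps15LKO livers, replicates 1, 2 and 3 were the highest for 3, 2 and 2 of the called members, and replicate 2 was the highest for 12 of the interferon-stimulated genes. When any 1 liver was left out, the 7 members were still called higher.

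The genes around the members, in a list of 27 regulators of the Ripk1 complex, moved both ways. Of these, 9 were called higher and 6 lower, with a median log2 fold change within 0.01 of 0, beside 33.5% and 33.0% of all tested genes. Of the 26 that reached 20 or more normalized counts in all livers, 8 were called higher and 6 lower, beside 27.9% and 36.2% of genes under that filter. With equal total reads, 21 were called higher and 2 lower, with a median of 0.73, beside 66.7% and 11.1% of all tested genes. Tnfaip3 (A20), a ubiquitin-editing brake on NF-kB and on Ripk3, had 57.0, 60.0 and 72.8 normalized counts in WT and 379, 350.1 and 402 in Vps15LKO livers. Its log2 fold change was 2.56 ± 0.14, and that of its partner Tnip1 was 2.45 ± 0.09 (SE, limma adjusted p = 1.98e-06 and 3.39e-07). Tlr4, the lipopolysaccharide receptor, was higher by 1.84 ± 0.19. Chuk, a kinase that phosphorylates Ripk1 and NF-kB inhibitors, fell by 1.49 on the log2 scale. Ppm1b, a phosphatase that acts on Ripk3, fell by 1.204.

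In the list of 24 inflammasome sensors and licensing genes, 21 were tested, 13 were called higher and 5 lower, with a median log2 fold change of 1.15. Of these, 5 had a WT liver under 20 normalized counts and were tested through their level in Vps15LKO livers. Among the 16 with at least 20 in every liver, 8 were called higher and 5 lower, with a median of 0.37. All tested genes held 33.5% and 33.0%, or 27.9% and 36.2% under that filter. With equal total reads, 17 genes of the list were called higher and 2 lower. Panx1, a channel for ATP release, had 10.6, 16.2 and 20.2 normalized counts in WT and 477, 357 and 430.0 in Vps15LKO livers. Its log2 fold change of 4.70 ± 0.24 (SE, limma adjusted p = 1.54e-06) was the largest of the list. Panx1 and the DNA sensor Aim2 (2.24 ± 0.24, also called higher) were tested through their level in Vps15LKO livers. The ATP-gated channel P2rx7 (2.18 ± 0.25) was called higher as well. The sensors Nlrp12 and Nlrp6 went the other way. Nlrp6 had 2897, 2633 and 3041 normalized counts in WT and 661, 790.1 and 447 in Vps15LKO livers, and its log2 fold change was −2.21 ± 0.19 (SE, limma adjusted p = 1.92e-05). Nlrp12 fell by 2.59 on the log2 scale. The list holds the Naip paralogs, whose near-identical sequences can split reads, so their counts are uncertain.

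Of 14 gasdermins, caspase-1 substrates and lytic effectors, 9 were tested, of which 6 were called higher and 3 lower, with a median log2 fold change of 0.87. Without Il1b, which was tested through its level in Vps15LKO livers, 8 genes reached 20 or more normalized counts in all livers. Of these, 5 were called higher and 3 lower, with a median of 0.59. The shares of all tested genes were 33.5% and 33.0%, and 27.9% and 36.2% under that filter. With equal total reads, 7 genes of the list were called higher and 0 lower. Casp12, a relative of Casp1 and Casp4 in the same gene cluster, was higher by 2.84 ± 0.23 on the log2 scale (SE, limma adjusted p = 1.37e-05). The cytokine gene Il1b had 38.5, 37.5 and 18.9 normalized counts in WT and 125, 110.2 and 54.5 in Vps15LKO livers. It was called higher, by 1.56 ± 0.37 (SE, limma adjusted p = 0.00558), but was not called with quantile normalization (0.98, adjusted p = 0.051). Il18, the other cytokine that Casp1 matures, had 221, 251 and 216 normalized counts in WT and 179, 153 and 144 in Vps15LKO livers. It fell by 0.53 on the log2 scale (limma adjusted p = 0.00592), though its log2 fold change was 0.19 with equal total reads. Its soluble antagonist Il18bp was higher by 1.81 ± 0.11. Ninj1, which ruptures the membrane after pore formation, fell by 0.31 as deposited, but its log2 fold change was 0.18 with quantile normalization and 0.42 with equal total reads. Its call was also lost with upper-quartile scaling (limma adjusted p = 0.0919) and when WT replicate 1, Vps15LKO replicate 1 or Vps15LKO replicate 3 was left out (limma adjusted p = 0.0616, 0.0735 and 0.0553). Gsdme, the pore former cut by apoptotic caspases, had 139, 132 and 135 normalized counts in WT and 169.5, 159.6 and 179 in Vps15LKO livers, with no overlap. It was called higher, by 0.32 ± 0.12 (SE, limma adjusted p = 0.0365), but its log2 fold change was −0.0019 with quantile normalization. The call was kept without WT replicate 1 and lost when any other liver was left out (limma adjusted p from 0.0553 to 0.113). It was also lost without the filter on low values and with DESeq2 on the recovered reads (adjusted p = 0.058 and 0.0855). Of the remaining gasdermin genes, Gsdmc, Gsdmc2 and Gsdmc3 were listed at 0 in the 6 livers, and Gsdma was at 0 in the 3 WT livers and between 5.35 and 12.0 normalized counts in Vps15LKO livers, below the filter.

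Over the 3 lists together, 28 of 57 tested genes were called higher and 14 lower, and 45 and 4 with equal total reads. Of the 50 that reached 20 or more normalized counts in all livers, 21 were called higher and 14 lower. The background was 33.5% and 33.0% of tested genes as deposited, 66.7% and 11.1% with equal total reads, and 27.9% and 36.2% for genes that reached 20 in all livers. The 31 apoptosis genes, given for comparison, held 30 tested genes, of which 12 were called higher and 10 lower, with a median log2 fold change of −0.12. With equal total reads, 18 of them were called higher and 1 lower, with a median of 0.61. Among the 27 that reached 20 or more normalized counts in all livers, 9 were called higher and 10 lower, with a median of −0.23, and these do not hold Tnfrsf10b and Bcl2, which were tested through their level in Vps15LKO livers. Tnfrsf10b, a death receptor, was at 1.33, 4.996 and 10.8 normalized counts in WT and 170, 182 and 175 in Vps15LKO livers. Bcl2 (2.60 ± 0.28), which blocks apoptosis, and Apaf1 (2.39 ± 0.14), the scaffold of the apoptosome, were called higher. The nuclease gene Endog fell by 1.15, and Xiap, an inhibitor of caspases, fell by 0.91 on the log2 scale and was not called with equal total reads.

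**Figure D4:**
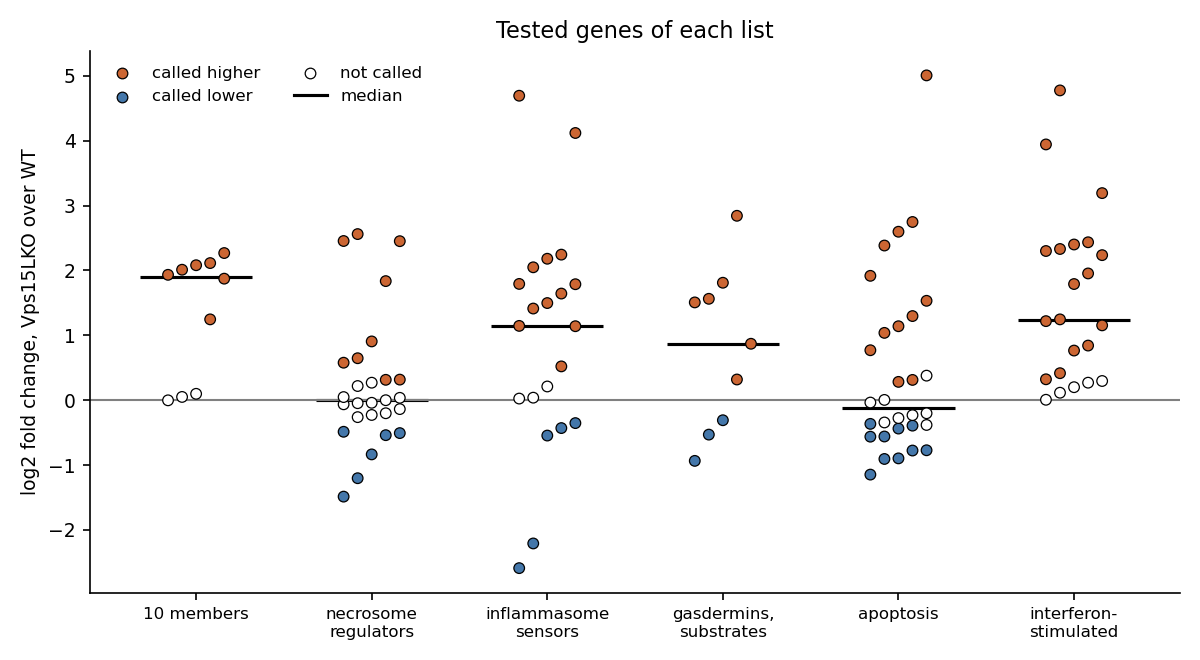
Log2 fold change, Vps15LKO against WT, of each tested gene in the members and in the lists of related genes, with the median of each list. The median of all tested genes, not drawn, was −0.02. The members have a median of 1.90 (1.25 for the 7 that reached 20 normalized counts in all livers), and the regulators of the Ripk1 complex and the apoptosis genes are spread on both sides of 0.

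Interferon-stimulated genes were counted because Zbp1, Mlkl, Casp4 and others are known targets of interferon. Of 22 genes, 17 were called higher and none lower, beside 33.5% and 33.0% of all tested genes. The median log2 fold change of the list was 1.23. Rsad2 had 206, 179 and 306 normalized counts in WT and 7079, 5669 and 5851 in Vps15LKO livers, a log2 fold change of 4.78 ± 0.19 (SE, limma adjusted p = 5.35e-07). Ifit2 (3.94 ± 0.20) and Mx1 (3.19 ± 0.23) were also called higher, the latter tested through its level in Vps15LKO livers. Of the 21 genes at 20 or more normalized counts in all livers, 16 were called higher, beside 27.9% of all genes under that filter. The summed level of the list was 10316 to 12449 normalized counts for WT and 26512 to 27761 for Vps15LKO livers.

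Summed markers of 4 immune cell lists were also higher in Vps15LKO livers, and their part in the result was not tested. Of all tested genes, 33.5% were called higher and 33.0% lower, or 27.9% and 36.2% of those at 20 or more normalized counts in every liver. Of 10 markers of recruited monocytes and macrophages, 10 were called higher (4 of the 4 that reached 20 normalized counts in every liver), and their summed level ran from 256 to 285 normalized counts for WT and from 9629 to 11024 for Vps15LKO livers. Of 14 Kupffer cell and macrophage markers, 10 were called higher and 1 (Cd163) lower, and the sums ran from 11142 to 12831 and from 37208 to 41403. Of 10 neutrophil markers, 6 were tested and called higher. But 5 of these were tested through their level in Vps15LKO livers, so their place among the tested genes depends on their being high there. The neutrophil sums ran from 76.2 to 87.6 for WT and from 583 to 746 for Vps15LKO livers, while Ly6g, Mpo and Ngp were at 0 in the 3 WT livers. The sums of 13 markers of T, NK and B cells ran from 168 to 217 and from 427 to 496, with 7 of 9 tested markers called higher, of which 1 reached 20 normalized counts in every liver. No marker of these 4 immune lists was at 0 in all Vps15LKO livers. Per 1000000 reads, the Vps15LKO sums were 65.2 (recruited), 5.40 (Kupffer), 13.9 (neutrophil) and 4.12 (T, NK and B) times those of WT livers.

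The other lists bear on cells that could also hold these transcripts. All 10 stellate cell and fibroblast markers were called higher, with sums from 7736 to 8218 in WT and from 32425 to 37848 in Vps15LKO livers. Of 8 cholangiocyte markers, 7 were tested and called higher, 4 of them at 20 or more normalized counts in all livers, with sums from 1270.3 to 1421 and from 12359 to 23851. Of 10 endothelial markers, 4 were called higher and 6 lower. Their sum ran from 10988 to 12245 in WT and from 8579 to 10874 in Vps15LKO livers, but per 1000000 reads it was higher in Vps15LKO livers, by 1.40 times. Of 12 hepatocyte markers, 9 were called lower and none higher, and their sum in Vps15LKO livers was 0.388 times that of WT livers. Per 1000000 reads, the hepatocyte sum was still lower, at 0.638 times, and the stellate and cholangiocyte sums were 7.25 and 21.4 times those of WT livers.

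**Figure D5:**
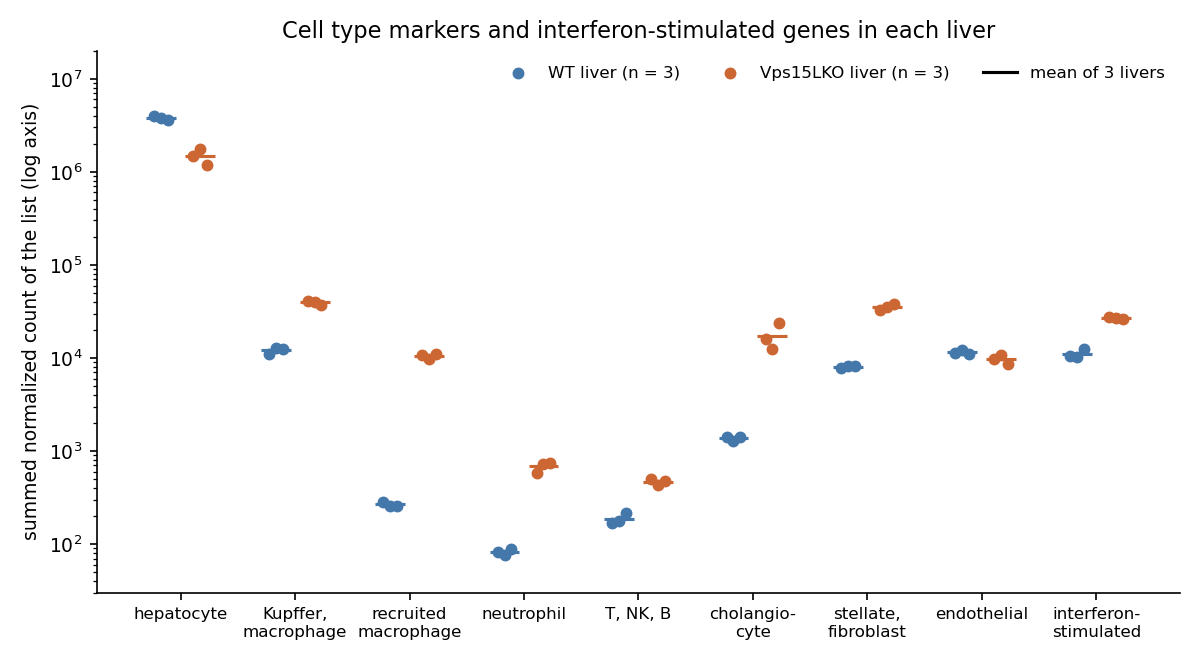
Summed normalized counts (log axis) of the markers of each cell type and of the interferon-stimulated genes, with 1 point per liver for 3 WT and 3 Vps15LKO livers. The immune, stellate and cholangiocyte sums lie higher in each Vps15LKO liver, and the hepatocyte sum lies lower. Recruited monocytes and macrophages lead at 39.2 times the WT mean, or 65.2 times per 1000000 reads.

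As a description, the genes outside the members whose levels over the 6 livers were most like the mean standardised profile of the 10 members were Gm16892 and Gngt2 (Pearson r = 0.997), Me2 and Desi2 (r = 0.996) and Lyn (r = 0.995), a kinase gene of myeloid and B cells. In all, 1009 genes had an r of at least 0.95 over these livers. The 6 livers share 2 genotypes, and likeness within a genotype was not measured apart.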

How the data were processed

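Liver RNA of 3 WT and 3 Vps15LKO mice was compared, with genotype and replicate number taken from the sample labels. Reads were mapped to GRCm38 by the authors using HISAT2, assigned to genes by featureCounts and normalized by DESeq2. Versions and the strand and multi-mapping settings are not given in the sources used here. The deposited values of 56305 genes are a signal, namely counts over a size factor. Every value (100%) was a whole multiple of what 1 read is worth (tolerance 0.001), which gave back the whole reads. Floors of 3 reads correspond to 2.12 to 4.04 normalized counts and cover counting error only. Gene positions are from GENCODE M21 (GRCm38), which matched 55227 genes.

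The filter asked for 20 or more normalized counts in 3 or more livers and left 15430 genes. log2(normalized count + 1), a scale that understates changes of low genes, was compared with limma 3.58.1 in R 4.3.3 (lmFit, then eBayes with its mean-variance trend). Calls needed a Benjamini-Hochberg adjusted p under 0.05 together with a fold of 1.2 or more. Scripts were tested on simulated data. On the recovered reads, edgeR 4.0.16 called 5170 genes higher and 5150 lower, DESeq2 1.42.0 called 5024 and 5004, and limma voom called 5143 and 5151. Limma on the deposited values called 5163 and 5099.

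The members and lists were chosen with earlier results of these data known. Named genes are the members, Pik3r4, the 3 largest rises and 2 largest falls among called genes of each list whose mean reached 50 normalized counts, markers at 0 in a genotype, and the 5 genes most like the members. Cd163, Gsdma, Gsdme, the Gsdmc genes and the Naip genes are not covered by this rule and were named with their values in view. Alternatives were pseudocounts of 0.1 and 10, other filters, scalings, tools and thresholds, each liver left out in turn and a replicate block. Python 3.11.15 with pandas 2.3.3 and numpy 2.4.6 prepared the tables, and matplotlib 3.10.9 drew the plots.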

Additional observations from a re-analysis of the deposited data

How the results depend on the processing

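Over 19 refits and 2 other thresholds, the count of members called higher stayed at 7, except for 10 with equal total reads and 4 when a gene had to reach 20 normalized counts in every liver, where Ripk3, Nlrp3 and Pycard were no longer tested. No alternative called a member lower. Gsdmd changed sign to 0.039 with TMM, 0.12 with upper-quartile, 0.078 with quantile and 0.72 with total-read scaling, and ran from −0.041 to 0.027 as each liver was left out. Casp8 ran from −0.020 to 0.22 as each liver was left out. Pik3r4 was at 0.19 and Il18 at 0.19 with equal total reads, Ninj1 at 0.18 with quantile normalization and 0.42 with equal total reads, and Gsdme at −0.0019 with quantile normalization; the replicate block also ended the call of Gsdme (limma adjusted p = 0.0713). The genes around the members, 28 higher and 14 lower, were 45 and 4 with equal total reads, and 6 were lower at a fold of at least 1.5. Over all tested genes, equal total reads gave 10299 higher and 1712 lower in place of 5163 and 5099. The cause of these differences between scalings was not tested. With a replicate block, 7 members were called higher and 0 lower, the genes around them 26 and 14, and all genes 5065 and 4983. Livers of the same number deviated together with correlations of −0.0099, −0.0114 and 0.0485, so the numbers were taken as names. The 11 to 29 reads behind Ripk3, Nlrp3 and Pycard in WT livers limit the precision of their folds.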
